A study of Mus musculus with 6 samples.

Results

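The genes described here are 10 genes of vasoactive signalling, the exchange of signals by which endothelial cells set the tone of the vessels around them. They were chosen by symbol, and all 10 were found, each as a single entry, among 26264 genes measured. They comprise Nos3, Edn1, Ece1, Ednrb, Adm, Calcrl, Ramp2, Ramp3, Ptgis and Ace. RNA was measured in endothelial cells of the liver from C57BL6 mice kept for 1 month on a diet with 1200 ppm PLX5622 (3 libraries) or on a control diet (3 libraries). PLX5622 is an oral inhibitor of the kinase CSF1R, on which most tissue macrophages depend, and here it was given in the food. Cells carrying CD31 were sorted from 1 liver lobe per sample, a gate that takes endothelial cells of every vessel type. The samples are called biological replicates in their titles, and the sources used here state neither age nor sex. The series asked whether the drug alters cholesterol metabolism in endothelial cells outside the brain, and the vasoactive genes are not part of that question.

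Endothelial cells release both dilators and constrictors. Endothelial nitric oxide synthase, the product of Nos3, makes the dilator nitric oxide, and prostacyclin synthase, the product of Ptgis, makes the dilator prostacyclin. Endothelin-1, encoded by Edn1, is a constrictor peptide that is cut from its precursor by the converting enzyme Ece1, and the endothelial receptor Ednrb binds it, clears it and signals to nitric oxide release. Adrenomedullin, from Adm, is a dilating peptide whose receptor is formed by Calcrl together with an accessory protein, Ramp2 or Ramp3. Angiotensin-converting enzyme, Ace, makes angiotensin II and breaks down the dilator bradykinin. In the liver the sinusoid is lined by a specialised, fenestrated endothelium, and endothelin and nitric oxide act from there on the neighbouring stellate cells.

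The recovered depth lay between 14517946 and 32732108 reads per library over the genes of the authors' comparison table. The general endothelial markers were present in every library, with a summed level of 10 genes of 12969 to 13787 TPM on PLX5622 and 13272 to 13667 TPM on the control diet. TPM, the deposited unit, is a share of transcripts corrected for gene length. Markers of the vessel types did not stay as even. The summed level of 10 sinusoidal markers was 6956, 10019 and 9992 TPM in PLX5622 replicates 1 to 3, against 6438, 11916 and 12420 TPM in control replicates 1 to 3. That of 13 large vessel markers was 9427, 6793 and 7446 TPM on PLX5622, against 9766, 6959 and 6230.0 TPM on the control diet. Replicate 1 of each diet was thus lowest in the sinusoidal sum and highest in the large vessel sum. The genes of a list did not all go this way. Large vessel genes such as Vwf, Rspo3, Wnt9b and Selp were highest in replicate 1 of each diet. Efnb2, Dll4 and Sox17, of the same list, were lowest there, with Dll4 at 207 TPM on PLX5622 and 177 TPM on the control diet. The sinusoidal gene Fcgr2b was highest in PLX5622 replicate 1, at 359 TPM. Hepatocyte markers (14 genes) summed to 1434 to 2799 TPM on PLX5622 and to 2155 to 4987 TPM on the control diet, with the highest value in control replicate 1. Kupffer cell markers (12 genes) summed to 49.7 to 100.5 TPM on PLX5622 and to 101.5 to 179 TPM on the control diet, without overlap. All 11 tested were below 0 on the log2 scale, beside 53.8% of all genes tested. With limma, 5 of them were lower at an unadjusted p under 0.05, beside 1.7% of all genes tested. At the adjusted threshold there were 0, beside 0.0% of all genes tested. The part of these marker levels in the values given here was not tested. In bulk RNA, fewer cells of a type and less RNA per cell cannot be told apart.

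All 10 genes averaged at least 1 TPM, the limit for testing, and their levels spanned a wide range. By mean TPM over the 6 libraries the order was Ramp2 (1167), Ece1 (1107), Edn1 (724), Calcrl (473), Nos3 (281), Ednrb (232), Ace (92.9), Adm (75.0), Ramp3 (23.4) and Ptgis (2.36). Ramp2 stood above 99.5% of the genes detected in at least 1 library, and Ptgis above 35.6% of them. Some neighbours in this order did not differ beyond their spread. Ramp2 exceeded Ece1, Nos3 exceeded Ednrb, and Ace exceeded Adm in 4 of 6 libraries each. Edn1 lay below Ece1 and above Calcrl in 6 of 6 libraries although the ranges over libraries overlapped. Ednrb and Ace, Adm and Ramp3, and Ramp3 and Ptgis had ranges that did not overlap.

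**Figure D1:**
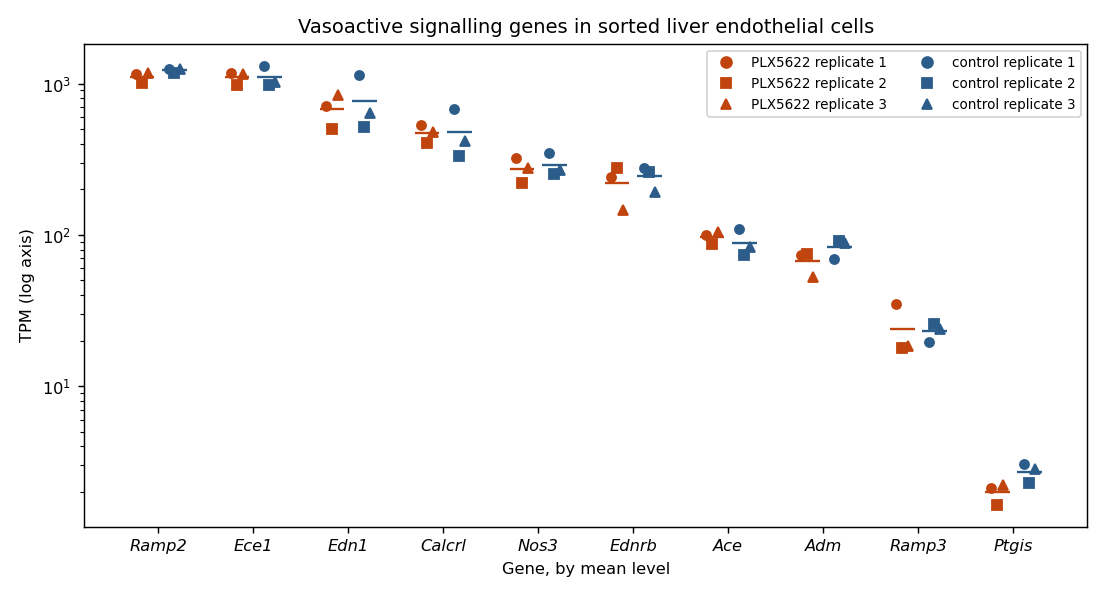
TPM on a log axis (vertical) for the 10 genes (horizontal, by mean level), with PLX5622 libraries left and control libraries right of each gene, 1 point per library and a line at the mean of each diet (n = 3). The levels run from about 1167 TPM for Ramp2 to 2.36 TPM for Ptgis, and the points of the diets intermingle for every gene but Ptgis.

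The diets were compared with limma on log2(TPM + 1) across 13739 genes. Of the 10 vasoactive genes 0 passed an adjusted p under 0.05, and 0 had an unadjusted p under 0.05. Of all genes tested, limma called 0.0% at the adjusted threshold and 3.34% at the unadjusted one, and the members' counts do not exceed this background. voom on the recovered reads also called 0 of the 10, and the authors' deposited table (DESeq2) calls 0 of the 10, against 0.0729% of its 15097 genes. At an unadjusted p under 0.05 that table holds 0 of the 10 and 3.18% of all its genes. The fold changes of the 10 genes lay between -0.32 and 0.14 on the log2 scale, with 7 below 0 and 3 above it. Their median was -0.10, beside a median of -0.02 and 53.8% below 0 over all genes tested. The diets' ranges were separate in 1 gene, Ptgis, beside 8.68% of all genes tested. All 10 genes had the same limma adjusted p of 0.99998, so the intervals and the values by library carry what the data say.

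**Figure D2:**
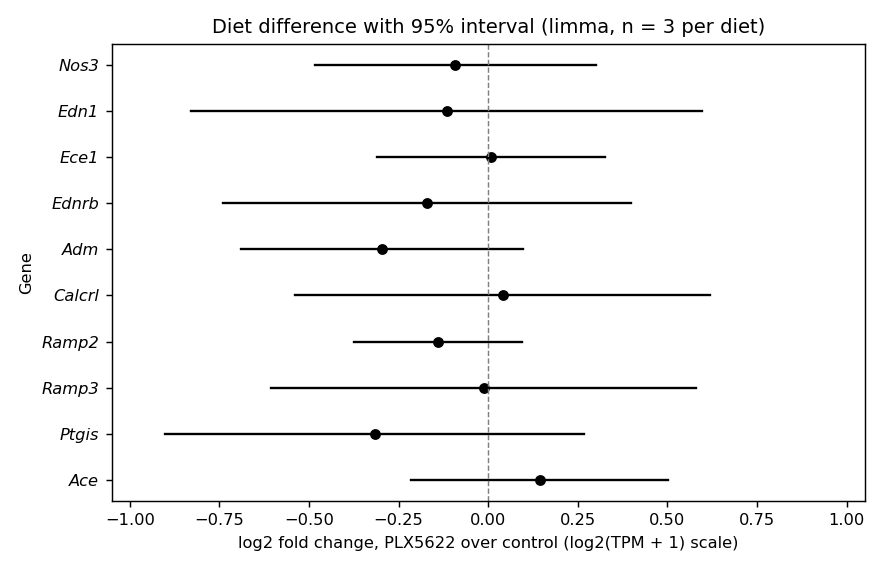
Log2 fold changes between the diets (PLX5622 minus control, from TPM + 1, horizontal) for each of the 10 genes (vertical), points with 95% intervals from limma (n = 3 per diet). All 10 intervals include 0; the narrowest belongs to Ramp2, at -0.37 to 0.09, and the widest to Edn1, at -0.83 to 0.60.

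Nos3 had 322, 220.0 and 277 TPM in PLX5622 replicates 1 to 3, against 347, 254 and 270 TPM in control replicates 1 to 3. The highest library was a control and the lowest was on PLX5622, while the other PLX5622 libraries lay above the other control libraries, so the ranges overlapped. The mean was 273 ± 51.3 TPM on PLX5622 and 290.1 ± 49.5 TPM on the control diet (SD, n = 3 each). The log2 fold change was -0.09 (95% interval -0.48 to 0.30), so the interval runs from 0.715-fold to 1.23-fold. Without control replicate 1 it was 0.04, and without PLX5622 replicate 2 it was 0.05. Nos3 rested on 5452 to 13864 reads per library. An annotated gene on the opposite strand, Atg9b, overlaps Nos3 exons in the mouse annotation, and the libraries carry no strand, so reads of the overlap cannot be assigned.

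The prostacyclin enzyme Ptgis was the weakest of the 10 genes. It had 2.12, 1.64 and 2.22 TPM on PLX5622, against 3.06, 2.31 and 2.83 TPM on the control diet. All PLX5622 values were under all control values, with the highest PLX5622 value, 2.22 TPM, close to the lowest control value, 2.31 TPM. On the log2 scale the difference was -0.32 (95% interval -0.90 to 0.27), with an unadjusted limma p of 0.243. These levels came from 30, 18 and 29 reads on PLX5622 and 54, 48 and 26 reads on the control diet, so counting error alone is wide. The authors' deposited table gives -0.44 (SE 0.50) for Ptgis. In control replicate 1, where Ptgis was highest, the sums of hepatocyte and of smooth muscle markers (6 genes) were also highest, at 4987 and 69.0 TPM. Control replicate 3, the next highest for Ptgis, had sums of 2155 and 29.9 TPM, each the lowest on the control diet. The part of these markers in the values was not tested.

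Edn1, the endothelin-1 gene, varied most among the 10. It stood at 706, 497 and 844 TPM in PLX5622 replicates 1 to 3, against 1144, 518 and 636 TPM in control replicates 1 to 3. Control replicate 1 was above every other library, and the remaining libraries of the diets overlapped. The highest library was 1.70-fold above the lowest on PLX5622 and 2.21-fold on the control diet, both wider than the difference between the means of 682 ± 175 TPM on PLX5622 and 766 ± 332 TPM on the control diet (SD, n = 3 each). PLX5622 minus control was -0.12 on the log2 scale (95% interval -0.83 to 0.60). It changed sign without control replicate 1, to 0.21, and without PLX5622 replicate 2, to 0.10.

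Ece1, which cuts the endothelin precursor, was among the steadiest genes. It had 1172, 984 and 1164 TPM on PLX5622, against 1307, 984 and 1029.8 TPM on the control diet. The difference was 0.01 on the log2 scale (95% interval -0.31 to 0.33), so that differences beyond 0.806-fold or 1.25-fold lay outside the interval. It was between -0.07 and 0.13 without single libraries. Ece1 was supported by 26618 to 64873 reads per library, the most of the 10 genes.

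Ednrb, the endothelin receptor of endothelial cells, had 242, 275 and 146 TPM on PLX5622, against 277, 260 and 193 TPM on the control diet. Replicate 3 was the lowest library of each diet, and the ranges overlapped. On the log2 scale Ednrb differed by -0.17 (95% interval -0.74 to 0.40), and without PLX5622 replicate 3 it was 0.10. Ednra, the receptor of smooth muscle and stellate cells, was listed at 0.0705, 0.228 and 0 TPM on PLX5622 and at 0.0283, 0.433 and 0 TPM on the control diet, so nearly all endothelin receptor RNA in the sort was Ednrb.

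Adm, the adrenomedullin gene, had 74.0, 75.2 and 52.9 TPM on PLX5622, against 68.8, 90.8 and 88.2 TPM on the control diet. The values of 2 control libraries lay above all PLX5622 libraries, and the third control library lay within the range of the PLX5622 libraries. The mean was 67.4 ± 12.5 TPM on PLX5622 and 82.6 ± 12.0 TPM on the control diet (SD, n = 3 each). The log2 fold change was -0.30 (95% interval -0.69 to 0.10), and the unadjusted limma p of 0.119 was the smallest of the 10 genes. Without control replicate 1 the fold change was -0.42, with an unadjusted limma p of 0.0379 and an adjusted p of 0.804. With library weights it was -0.37, with an unadjusted limma p of 0.0453 and an adjusted p of 0.944. It was -0.13 without PLX5622 replicate 3, and it stayed below 0 in every alternative run.

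The receptor genes differed in how even they were. Calcrl, the receptor subunit that binds the ligand, had 531, 403 and 477 TPM on PLX5622, against 680.4, 331 and 417 TPM on the control diet. The control libraries spread 2.06-fold and enclosed all 3 PLX5622 libraries. The fold change was 0.04 on the log2 scale (95% interval -0.54 to 0.62); it was 0.33 without control replicate 1 and -0.19 without control replicate 2.

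Ramp2, the accessory protein that makes Calcrl an adrenomedullin receptor, had 1158, 1001 and 1177 TPM on PLX5622, against 1248, 1176 and 1244 TPM on the control diet. PLX5622 replicate 3 was the only one to reach the control range, and by about 1 TPM. The mean was 1112 ± 96.7 TPM on PLX5622 and 1223 ± 40.4 TPM on the control diet (SD, n = 3 each). The log2 fold change was -0.14 (95% interval -0.37 to 0.09), the narrowest interval among the 10 genes. It was -0.066 without PLX5622 replicate 2. Exons of the neighbouring gene Vps25, at a mean of 129.6 TPM, overlap those of Ramp2 in the mouse annotation, so reads in the shared stretch could have been dropped or split in the authors' counting.

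Ramp3, the alternative accessory protein, had 34.7, 18.0 and 18.5 TPM on PLX5622, against 19.6, 25.6 and 23.8 TPM on the control diet. PLX5622 replicate 1 was above all other libraries and the other PLX5622 libraries were below all control libraries. The log2 fold change was -0.01 (95% interval -0.61 to 0.58), and without PLX5622 replicate 1 it was -0.31. Ramp3 made up 2.91%, 1.76% and 1.55% of the Ramp2 and Ramp3 sum on PLX5622, against 1.54%, 2.13% and 1.88% on the control diet, a difference of 0.223 percentage points. A two-sided exact permutation test gave p = 0.8, and it cannot go below 0.1 with 3 libraries per diet. Without PLX5622 replicate 1 the difference was -0.195 percentage points. In every library the accessory protein RNA was thus nearly all Ramp2. Ramp1, which makes Calcrl a receptor for the neuropeptide CGRP, held 1, 4 and 21 reads on PLX5622 and 0, 3 and 2 reads on the control diet.

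Ace had 100.3, 87.0 and 104 TPM on PLX5622, against 109, 73.9 and 83.0 TPM on the control diet. The PLX5622 libraries lay inside the range of the control libraries, with control replicate 1 highest of all. Its fold change was 0.14 on the log2 scale (95% interval -0.21 to 0.50), the highest of the 10 genes. Without control replicate 1 it was 0.30 with an unadjusted limma p of 0.0337 and an adjusted p of 0.804, and without control replicate 2 it was 0.023 with an unadjusted limma p of 0.885.

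Single libraries stood out for several of the genes at once. Control replicate 1 was the highest library for 8 of the 10 genes, all but Adm and Ramp3, and PLX5622 replicate 2 was the lowest for 5 (Nos3, Edn1, Ramp2, Ramp3 and Ptgis). Control replicate 2 was the lowest for Ece1, Calcrl and Ace, and PLX5622 replicate 3 for Ednrb and Adm. Relative to its mean over the 6 libraries on the log2(TPM + 1) scale, Edn1 was at 0.72 in control replicate 1, Calcrl at 0.56, Nos3 at 0.31 and Ramp2 at 0.10. In that library the mean of the sinusoidal markers was at -0.59, that of the large vessel markers at 0.14 and that of the hepatocyte markers at 0.87. These are means of lists whose genes did not all move alike. PLX5622 replicate 1 had a like shift in the means of the vessel markers, at -0.41 for sinusoidal and 0.13 for large vessel markers, but hepatocyte markers at -0.66. There Nos3 stood at 0.21, Calcrl at 0.20 and Edn1 at 0.02. The part of these marker shifts in the values was not tested.

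**Figure D3:**
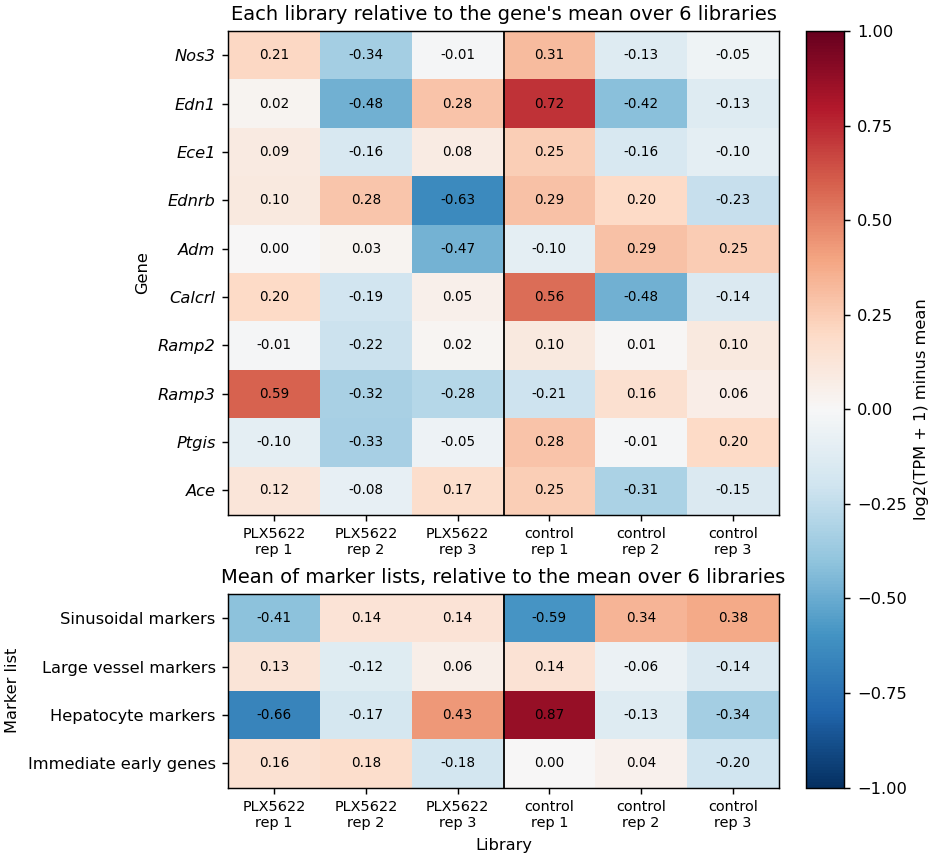
Colour and printed values give log2(TPM + 1) minus the mean over the 6 libraries, for the 10 genes (upper panel) and for the mean of 4 marker lists (lower panel), with PLX5622 libraries left and control libraries right of the line. Control replicate 1 holds the highest value of 8 genes, the highest hepatocyte value (0.87) and the lowest sinusoidal value (-0.59).

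Edn1 and Calcrl had the widest ranges over libraries, 1.20 and 1.04 on the log2(TPM + 1) scale. Among the 9232 genes that averaged 10 TPM or more, the profiles over the 6 libraries nearest to that of Edn1 were those of Fgf11, Adamtsl4 and Plekha7, with root mean square differences of 0.0882, 0.103 and 0.106 on the log2 scale. Nearest to Calcrl were Sh3bp4, Csgalnact1 and Hs3st1, at 0.0256, 0.0590 and 0.0725. With 6 libraries and this many genes, near profiles occur readily, and this is a description of these libraries.

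The promoters of Edn1 and Calcrl, the genes with the widest ranges over libraries, are shown. Both were among the 8 of the 10 genes that were highest in control replicate 1. The sequences are RefSeq's, from 250 bases before to 50 bases after the annotated gene start in build GRCm38.p6, another build than the authors' mm39; RefSeq promoters were at hand for 7 of the 10 genes. Edn1 lies at chr13:42301226-42301525 on the plus strand and Calcrl at chr2:84425217-84425516 on the minus strand. Capitals mark matches, on either strand, to motifs chosen with the sequences in view. The GATA motif was AGATAA and the AP-1 motif was TGACTNA. The motif of ETS factors was GGAAG, that of KLF factors was CACCC, and that of hypoxia-inducible factors was ACGTG.
Edn1: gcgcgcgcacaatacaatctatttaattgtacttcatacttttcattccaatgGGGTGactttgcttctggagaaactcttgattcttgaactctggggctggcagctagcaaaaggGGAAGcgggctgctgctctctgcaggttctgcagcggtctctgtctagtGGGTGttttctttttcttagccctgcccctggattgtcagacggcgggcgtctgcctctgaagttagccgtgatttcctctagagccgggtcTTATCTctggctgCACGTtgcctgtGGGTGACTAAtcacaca
Calcrl: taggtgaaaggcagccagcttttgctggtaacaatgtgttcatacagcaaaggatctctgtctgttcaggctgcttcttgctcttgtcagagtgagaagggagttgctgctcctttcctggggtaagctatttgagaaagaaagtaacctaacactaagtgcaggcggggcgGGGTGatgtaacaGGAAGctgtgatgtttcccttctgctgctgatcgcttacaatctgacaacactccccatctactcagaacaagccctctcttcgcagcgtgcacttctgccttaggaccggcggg
The Edn1 window held 1 match each for the GATA, AP-1, ETS and hypoxia motifs and 3 for the KLF motif, of which the last overlaps the AP-1 match. The Calcrl window held 1 ETS and 1 KLF match and none of the others. Of 32851 mouse promoters in the same set, 11.2% held the GATA motif, 13.9% the AP-1 motif, 71.4% the ETS motif, 57.5% the KLF motif and 19.6% the hypoxia motif. A match describes letters and is not a binding site.

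The other genes of these pathways were counted in 6 lists with 87 genes, of which 57 were tested and 30 fell below a mean of 1 TPM. With limma, 0 of the 57 passed the adjusted threshold. At an unadjusted p under 0.05 there were 4 of the 57 (7.02%), beside 3.34% of all genes tested. Of these 4, 1 was higher and 3 were lower. Of all genes tested, 1.64% were higher and 1.7% lower at that threshold. The diets did not overlap in 7 of the 57 (12.3%), beside 8.68% of all genes tested. The median log2 fold change of the 57 was -0.13, with 36 below 0 and 21 above it.

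Among nitric oxide genes, 23 of 25 were tested, with 0 higher and 1 lower at an unadjusted p under 0.05. That gene was Nostrin, which binds the nitric oxide synthase and guides its traffic away from the membrane. It had 80.6, 92.3 and 79.0 TPM on PLX5622, against 98.1, 116.7 and 116.9 TPM on the control diet, without overlap. The log2 fold change was -0.39 (95% interval -0.65 to -0.14, limma adjusted p = 0.99998), and it lay between -0.47 and -0.35 without single libraries. The nitric oxide receptor subunits Gucy1a1 and Gucy1b1 were at 0.50 and 0.46 (95% intervals -0.09 to 1.09 and -0.02 to 0.95). Cav1, the caveolar protein that holds the synthase inactive, was at -0.03. The chaperone Hsp90ab1, which the synthase also binds, had the highest level of the list, at 1946 ± 304 TPM on PLX5622 and 2136 ± 449 TPM on the control diet (SD, n = 3 each).

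The endothelin list beyond the members was nearly empty in these cells: 2 of 8 genes were tested, 0 at an unadjusted p under 0.05. These were Furin, a protease that trims precursors, at -0.08, and Mme, neprilysin, which degrades endothelin, at -0.13. Of the adrenomedullin and CGRP list 4 of 9 genes were tested and 0 had an unadjusted p under 0.05. Pam, which amidates the adrenomedullin peptide, was at 0.00. Crcp, a component of CGRP receptor signalling, was at -0.16. The decoy receptor Ackr3 was at 0.00 (95% interval -1.09 to 1.10), with 104, 86.0 and 123 TPM on PLX5622 against 246, 65.7 and 67.6 TPM on the control diet, so control replicate 1 stood above all others here too. Calcr, the calcitonin receptor, was listed at 0 TPM in each PLX5622 library and at 0.132, 0.112 and 0.203 TPM in the control libraries. Its mean over the 6 libraries, 0.0744 TPM, was below the limit for testing, so no diet difference can be read from these values.

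Among prostanoid genes, 10 of 16 were tested, with 0 higher and 2 lower at an unadjusted p under 0.05. Tbxa2r, the receptor for the constrictor thromboxane, had 44.7, 32.1 and 42.4 TPM on PLX5622, against 48.0, 62.3 and 67.4 TPM on the control diet, without overlap. Its log2 fold change was -0.56 (95% interval -0.96 to -0.16, limma adjusted p = 0.99998). Hpgd, which inactivates prostaglandins, was at -0.51 (95% interval -1.02 to -0.00117), and without control replicate 2 it was at -0.33. Ptgs1, the constitutive cyclooxygenase, was high, at 511 ± 106 TPM on PLX5622 and 490 ± 54.8 TPM on the control diet (SD, n = 3 each), while the inducible Ptgs2 stood at 0.744 ± 0.359 TPM on PLX5622 and 1.15 ± 0.483 TPM on the control diet. Slco2a1, a prostaglandin transporter, was at 0.01, the prostacyclin receptor Ptgir at 0.08 and thromboxane synthase, Tbxas1, at -0.34.

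Of the renin, angiotensin and kinin list 11 of 19 genes were tested and 0 had an unadjusted p under 0.05. Their median was -0.28, with 9 below 0 and 2 above it, beside 53.8% of all genes below 0. Hepatocyte markers had a median of -0.36 with 11 of 14 below 0, and their part in this list was not tested. Of the plasma protein genes in the list, which hepatocytes make and which were picked out after their values were seen, Agt, the angiotensin precursor, was at -0.15, Kng1 at -0.28, Kng2 at -0.41 and Cpn1 at -0.51. Agtr1a, the angiotensin II receptor, had 0.787, 0.437 and 1.10 TPM on PLX5622, against 1.89, 1.92 and 1.47 TPM on the control diet, without overlap. These levels came from 6 to 18 reads on PLX5622 and 17 to 50 reads on the control diet, and the log2 fold change was -0.65 (95% interval -1.36 to 0.06). Cpm, a carboxypeptidase, was at -0.35, and Enpep, which trims angiotensin II, at -0.42 (95% interval -1.31 to 0.48). Atp6ap2, the prorenin receptor, was at -0.07. Agtr1b was listed at 0 TPM in all 6 libraries. Bdkrb2, the bradykinin receptor, averaged 0.0532 TPM on PLX5622 and 0.213 TPM on the control diet.

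Of the natriuretic peptide and apelin list 7 of 10 genes were tested, with 1 higher and 0 lower at an unadjusted p under 0.05. Npr3, the receptor that clears natriuretic peptides, had 97.1, 111.5 and 105 TPM on PLX5622, against 81.9, 44.1 and 65.1 TPM on the control diet, without overlap. Its log2 fold change was 0.75 (95% interval 0.27 to 1.23, limma adjusted p = 0.99998) and lay between 0.51 and 0.95 without single libraries. In the authors' deposited table Npr3 stands at 0.73 (log2, SE 0.21) with a DESeq2 adjusted p of 0.256. The signalling receptors Npr1 and Npr2 were at -0.13 and 0.04. Npr1 was high, at 847 ± 72.7 TPM on PLX5622 and 926 ± 65.0 TPM on the control diet (SD, n = 3 each).

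**Figure D4:**
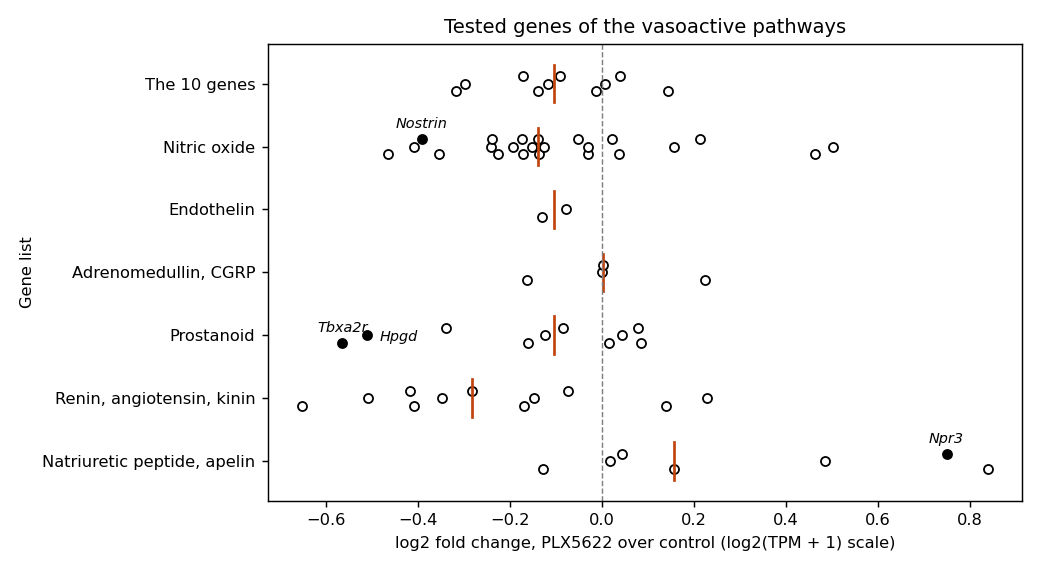
Log2 fold changes between the diets (PLX5622 minus control, from TPM + 1, horizontal) of each tested gene in the 10 genes and the 6 pathway lists (vertical), 1 point per gene, with a red line at each list's median. Filled and named points have an unadjusted limma p under 0.05 (Nostrin, Tbxa2r, Hpgd and Npr3); none passed the adjusted threshold.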

How the data were processed

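RNA from sorted liver endothelial cells of 6 samples, 3 per diet, was analysed. Titles gave the diet and replicate number, and libraries were polyadenylated and non-stranded, per the labels' protocols. The submitters' processing notes list build mm39, STAR 2.7.10a, R 4.1.0 with DESeq2 1.32.0, and Subread 2.0.1 with featureCounts; no source used here gives the counting settings. The authors deposited TPM, scaled to the same total in each library. The authors' deposited comparison table gives a mean normalized count (a signal), a log2 fold change with its standard error, a Wald score, and p-values from DESeq2; its sign was PLX5622 over control for 100% of 791 genes with a fold change above 1 on the log2 scale.

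Here the 13739 genes averaging 1 TPM or more were tested with limma-trend (limma 3.58.1, R 4.3.3) on log2(TPM + 1), and p-values were adjusted over all of them by Benjamini and Hochberg's method; this scale understates changes of weak genes. The limma p-values set the diet difference against the spread between these samples, moderated with a trend over all genes. Reads were recovered from TPM and the mean normalized counts: 100% of values of 1 to 49 reads came within 0.05 of a whole number. No libraries of a diet agreed within sampling noise (smallest chi-square per degree of freedom 16.0). The limma fit and the recovery of reads were also run on simulated data. The simulated noise of the limma run was independent between genes and libraries, so it does not cover shifts that many genes of a library share. Members and lists were chosen with earlier results of these data known. Named are the 10 members, listed partners, and per list the genes with an unadjusted p under 0.05 (or the 2 smallest p) and the 2 highest levels; some genes that this rule names are not reported here. Gene overlaps come from GENCODE vM21, names only.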

Additional observations from a re-analysis of the deposited data

How the results depend on the processing

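Over 19 alternatives (other pseudocounts, filters, scalings and variance models, a replicate block, voom on recovered reads, and libraries left out), 0 of the 10 genes and 0 of all genes tested passed the adjusted threshold. In 4 of the 10 genes (Adm, Ramp2, Ptgis and Ace) the fold change kept its sign in all alternatives in which it was tested; Ptgis fell below the filter at a mean of 5 TPM. The other 6 genes changed sign in at least 1 alternative. With all libraries kept, Ece1 was -0.011 with quantile normalization, Edn1 was 0.061 with library weights, and Ramp3 was 0.023 with voom. Among the alternatives, Nos3, Ednrb and Calcrl changed sign when single libraries were left out. The authors' deposited table has Calcrl at -0.011 and Ramp3 at 0.062 (log2), each opposite in sign to the main limma fit. Without single libraries the range was -0.22 to 0.055 for Nos3, -0.36 to 0.21 for Edn1, -0.072 to 0.13 for Ece1, -0.35 to 0.10 for Ednrb, -0.19 to 0.33 for Calcrl, -0.31 to 0.15 for Ramp3, -0.42 to -0.13 for Adm, -0.18 to -0.066 for Ramp2, -0.40 to -0.23 for Ptgis, 0.023 to 0.30 for Ace, and -0.195 to 0.487 percentage points for the Ramp3 share; the cause was not tested. Without both libraries numbered 1, an alternative added after the data were seen, Edn1 was 0.17, Ramp3 -0.42 and Adm -0.50, the last 2 below an unadjusted p of 0.05. Same-numbered libraries deviated together with correlations of 0.196, 0.136 and 0.0873, and each of the 6 libraries matched its own number best, a hint from the data and not from the design. With the replicate block, 0 genes passed, with 821 at an unadjusted p under 0.05 against 459 without it. That count was 847 without control replicate 1, 304 without PLX5622 replicate 2, 780 without both libraries numbered 1 and 699 with no filter on low values. The smallest adjusted p of any gene under any alternative was 0.0506 with limma, without control replicate 3. Scalings moved the median of all genes by less than 0.1 (log2). Ptgis, at 18 to 54 reads, is limited by depth; the other members had at least 132 reads in every library.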

Other observations

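Genes of the flow response, of hypoxia and of cell dissociation were read in the same fit. The 9 genes of the flow response list had a median log2 fold change of 0.05 with 0 at an unadjusted p under 0.05. Klf2, which shear stress induces and which raises Nos3, had 1302, 1174 and 910 TPM on PLX5622, against 886, 1275 and 971 TPM on the control diet, a log2 fold change of 0.11 (95% interval -0.30 to 0.53). Its relative Klf4 was at 0.11 (95% interval -0.23 to 0.46), and the transcription factor Mef2a, which also acts in the flow response, at 0.09.

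Of 12 hypoxia-induced genes, which share regulators with Adm, 1 was higher and 0 were lower at an unadjusted limma p under 0.05. Of all genes tested, 1.64% were higher and 1.7% lower at that threshold. The median log2 fold change of the list was 0.08, with 6 genes above 0 and 6 below it. Bnip3, a mitochondrial protein, had 40.5, 38.8 and 42.5 TPM on PLX5622, against 34.6, 30.4 and 31.7 TPM on the control diet, at 0.33 (95% interval 0.08 to 0.57, limma adjusted p = 0.99998). Ldha was at -0.21 and Ndrg1 at 0.17.

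The 16 immediate early genes, which cell dissociation is known to induce, had a very high summed level in all libraries. They summed to 42101 to 49687 TPM on PLX5622 and to 36392 to 45734 TPM on the control diet. Single genes of the list were far lower, such as Egr2, at 10.4 to 20.8 TPM on PLX5622 and 12.6 to 21.2 TPM on the control diet. At an unadjusted limma p under 0.05, 1 of the 16 was higher and 0 were lower. Of all genes tested, 1.64% were higher and 1.7% lower at that threshold. The list's median log2 fold change was 0.16, with 11 genes above 0 and 5 below it. The diets did not overlap in 3 of the 16, beside 8.68% of all genes tested. Fos was at 0.32 (95% interval 0.01 to 0.63, limma adjusted p = 0.99998), and Egr1 at 0.12 (95% interval -0.32 to 0.57).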
